A study of Arabidopsis thaliana with 9 samples.

Results

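The aldehyde dehydrogenase (ALDH) superfamily of Arabidopsis thaliana was followed in rosette leaves by 8 genes, ALDH7B4, ALDH10A8, ALDH10A9, ALDH2C4, ALDH6B2, ALDH11A3, ALDH3F1 and ALDH22A1. They were all the genes whose symbol is ALDH followed by a number and that had a probe set of their own on the Affymetrix ATH1 array, 8 of 13350 genes so named and of 22746 probe sets tested. Each had 1 such probe set. A list of 16 ALDH genes, which includes P5CS1 and P5CS2 of the proline synthesis pathway, held 8 others that were not named on the array here.

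All plants were Columbia and carried the GVG construct, a vector that switches on its inserted coding sequence when the steroid dexamethasone (dex) is given. The DVL4 dex group was the line with the DVL4 coding sequence (the labels' GVGdvl4dex) after 30 µM dex (the labels write um), the DVL4 mock group was the same line after mock treatment (GVGdvl4mock), and the empty vector dex group was a line with no inserted sequence after the same dex (emptyvectordex). DVL4 encodes a small peptide of the DEVIL family. DVL4 itself had no named probe set here, so its induction was not measured. Leaves were taken 10 h after treatment at the stage of 6 expanded leaves from plants grown at 22 °C with 16 h days, and each of the 3 arrays per group held the pooled largest leaf of 20 plants. Each construct was represented by 1 line, and no empty vector leaves without dex were profiled, so line and dex cannot be told apart between the controls. Between DVL4 dex and mock leaves, dex itself and the switching on of DVL4 cannot be told apart. Between DVL4 dex and empty vector dex leaves, the same holds for the line and the inserted sequence. The p-values measure the spread between these pools. In whole leaves, fewer cells of a type and less RNA per cell cannot be told apart.

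ALDH enzymes oxidise aldehydes to carboxylic acids with NAD or NADP. Aldehydes arise in leaves from the breakdown of amino acids, polyamines and lipids and from the phenylpropanoid pathway, and they are toxic when they accumulate. The plant families differ in substrate and compartment. ALDH7B4 is an antiquitin, known as a gene induced by osmotic stress and abscisic acid, whose human relative acts in lysine breakdown. ALDH10A8 and ALDH10A9 are aminoaldehyde dehydrogenases of polyamine breakdown, related to the betaine aldehyde dehydrogenases of other plants. ALDH2C4 oxidises sinapaldehyde and coniferaldehyde to the acids used for sinapate esters and ferulate, and ALDH6B2 is the mitochondrial methylmalonate semialdehyde dehydrogenase of valine breakdown. ALDH11A3 is the non-phosphorylating glyceraldehyde 3-phosphate dehydrogenase of the cytosol, ALDH3F1 belongs to the stress-linked family of fatty aldehyde dehydrogenases, and ALDH22A1 is the single member of a plant family with no well known substrate.

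Array medians ran from 75.4 to 84.1 (dChip intensity, a linear brightness scale), and the ALDH genes ran from 192 to 3453, far above the floor of 4.92 set for low values. In 3 arrays (DVL4 dex replicates 1 and 2 and empty vector dex replicate 1) the spiked dap control had a 5′ to 3′ signal ratio of 0.228 to 0.278, against 0.601 to 1.32 in the other 6. A second set of dap control probe sets gave DVL4 dex replicate 3 a ratio of 0.481, also under the threshold of 0.5 used for the split. By that measure all 3 DVL4 dex arrays would count as low, and no DVL4 dex array would be left for the values without them. These low-5′ arrays lie unequally over the groups, with none among the mock arrays, and their part in the results was not tested other than by the values given with and without them. Of the leaf marker genes, LHCB4.1, RCA and PRK were measured and bright, with group means of 8083 to 10647. The root markers PYK10, EXPA7 and EXPA18 had group means of 14.3 to 39.2. EXPA7 was higher in DVL4 dex than in mock leaves (1.03 on the log2 scale, limma adjusted p = 0.0326). It did not pass against the empty vector (0.28, limma adjusted p = 0.638). PYK10 and EXPA18 passed in neither comparison (-0.39 and 0.18 against mock, 0.16 and 0.09 against the empty vector). The trichome gene TRY, 1 of 4 trichome markers listed, fell by 1.21 against mock and by 1.08 against the empty vector, and the guard cell gene FMA had group means of 101 to 144 and did not pass. Their part in the results was not tested. Flower, seed and vascular markers were not named on the array here.

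ALDH7B4 (AT1G54100) moved most within the family. Its intensity was 433, 316 and 421 on the mock arrays, 1203, 1506 and 1551 on the empty vector dex arrays, and 3452, 3389 and 3259 on the DVL4 dex arrays, each in the order of the replicate numbers. The groups did not overlap, and the gap between neighbouring groups was wider than the range of any group. The group means were 390 ± 64.7, 1420 ± 189 and 3367 ± 98.5 (SD, n = 3).

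Against mock, ALDH7B4 rose 8.72-fold in DVL4 dex leaves, by 3.12 ± 0.13 on the log2 scale (SE; 95% interval 2.82 to 3.42; limma adjusted p = 8.9e-07). Folds here are differences of mean log2 values. By size of rise it stood at rank 57 of 22746 probe sets, and by p-value at rank 20. Relative to the empty vector, where both groups had received dex, it rose 2.39-fold, by 1.25 ± 0.13 (0.96 to 1.55; adjusted p = 0.00076), at rank 167 by size of rise. The empty vector dex leaves in turn stood 3.65-fold above mock, with mock lower by 1.87 ± 0.13 (95% interval of the difference -2.17 to -1.57; adjusted p = 8.3e-05). All 3 comparisons thus passed in the order mock, empty vector dex, DVL4 dex, as they did for 253 probe sets (1.11%).

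Values of ALDH7B4 were also set side by side within each side of the split in 5′ signal, where the low-5′ side holds no mock array. Within the low-5′ arrays the 2 DVL4 dex arrays averaged 3421 and the empty vector dex array read 1203, a log2 difference of 1.51. Within the other arrays the DVL4 dex array read 3259 and the 2 empty vector dex arrays averaged 1528, a difference of 1.09, and that array stood 3.08 above the 3 mock arrays. Without the 3 low-5′ arrays, which leaves 1 DVL4 dex array, the rise against the empty vector was 1.09 and no longer passed (adjusted p = 0.117, assuming that the lone array varies like the other groups). The other 2 comparisons still passed there.

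**Figure D1:**
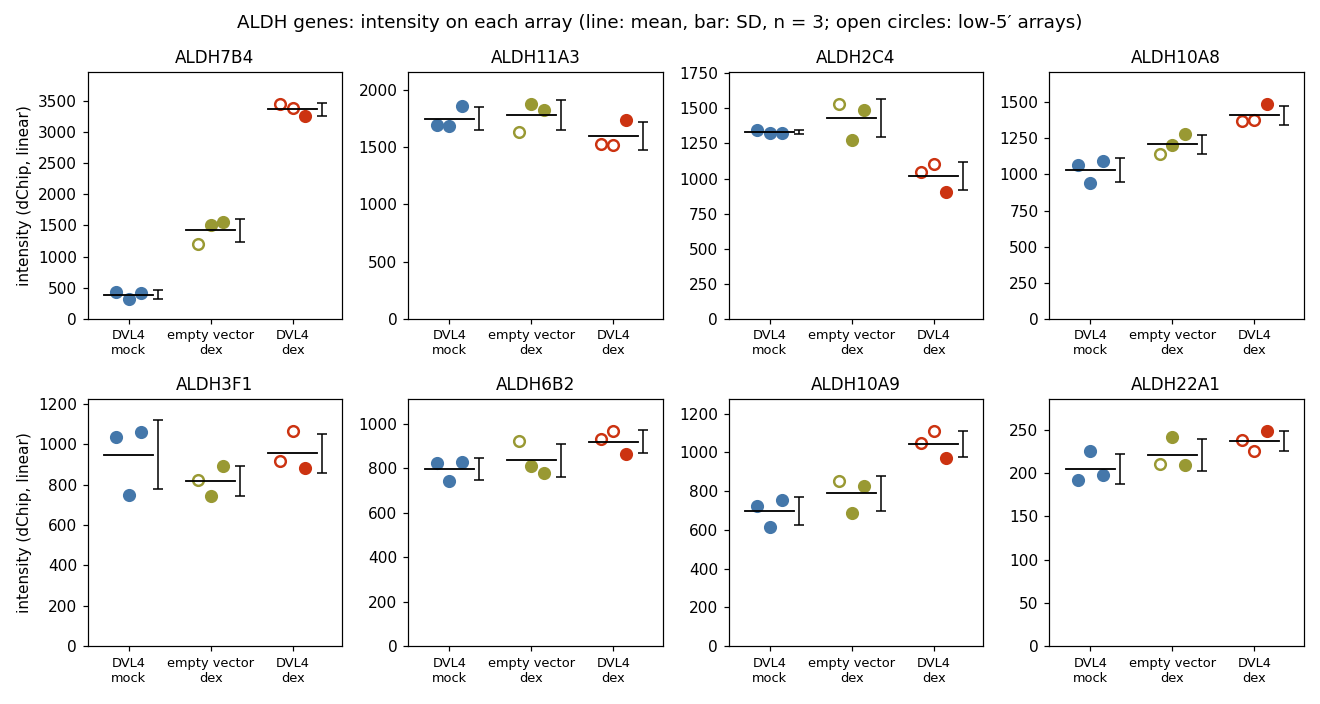
Intensity of the 8 ALDH genes on each array (dChip intensity, linear axis from 0), with points for replicates 1 to 3 from left to right, a line for the mean and a bar for the SD of 3 arrays. Open circles mark the 3 low-5′ arrays. ALDH7B4 separates all 3 groups, from 316 to 433 in DVL4 mock, 1203 to 1551 in empty vector dex and 3259 to 3452 in DVL4 dex.

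The aminoaldehyde dehydrogenases ALDH10A9 and ALDH10A8 were both higher in DVL4 dex leaves, by far less than ALDH7B4. ALDH10A9 (AT3G48170) read 724, 615 and 755 in mock, 852, 686 and 826 in empty vector dex, and 1051, 1109 and 970 in DVL4 dex leaves. All DVL4 dex arrays lay above all other arrays, while the controls overlapped. Against mock it rose by 49.9%, or 0.58 ± 0.11 on the log2 scale (0.34 to 0.83; limma adjusted p = 0.0043), and against the empty vector 1.33-fold, by 0.41 ± 0.11 (0.16 to 0.66; adjusted p = 0.0441). The controls did not pass (-0.17 ± 0.11).

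The call of ALDH10A9 against the empty vector was a narrow one. It was lost in 13 of 22 other settings (adjusted p from 0.0108 to 0.382, log2 change from 0.31 to 0.47). Among the single arrays it was lost without any of the DVL4 dex arrays (0.40, 0.36 and 0.46 without replicates 1, 2 and 3), without empty vector dex replicate 2 or 3 (0.31 and 0.45) and without mock replicate 1 or 3 (0.41 in both). With the replicate number as a block it was also lost (0.41, adjusted p = 0.0551). Against mock the call was lost only without the low-5′ arrays (0.48, adjusted p = 0.162).

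ALDH10A8 (AT1G74920) read 1065, 938 and 1090 in mock, 1145, 1204 and 1278 in empty vector dex, and 1370, 1376 and 1488 in DVL4 dex leaves. The 3 groups did not overlap and stood in the same order as for ALDH7B4. Against mock it rose 1.37-fold, by 0.46 ± 0.08 (0.27 to 0.64; limma adjusted p = 0.0032). The smaller steps did not pass, with DVL4 dex at 0.22 ± 0.08 relative to the empty vector (0.04 to 0.41; adjusted p = 0.122) and mock at -0.23 ± 0.08 (-0.41 to -0.05; adjusted p = 0.131). Without the low-5′ arrays the change against mock was 0.53 (adjusted p = 0.0609).

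ALDH2C4 (AT3G24503), the hydroxycinnamaldehyde dehydrogenase, was the 1 member that fell. It read 1349, 1323 and 1324 in mock, 1531, 1274 and 1489 in empty vector dex, and 1046, 1102 and 904 in DVL4 dex leaves. All DVL4 dex arrays lay below all control arrays, and the controls overlapped. Against mock it fell 1.31-fold, by 0.39 ± 0.10 on the log2 scale (95% interval -0.61 to -0.18; limma adjusted p = 0.0147). Relative to the empty vector it fell 1.41-fold, by 0.49 ± 0.10 (-0.71 to -0.28; adjusted p = 0.0114). The controls did not pass (-0.10 ± 0.10).

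DVL4 dex replicate 3 had the lowest ALDH2C4 value. Within the low-5′ arrays the difference from the empty vector was -0.51 and within the others -0.61. The call against mock was lost without mock replicate 1 (-0.38, adjusted p = 0.0534) and without the low-5′ arrays (-0.56, adjusted p = 0.0504). The call against the empty vector was lost without the low-5′ arrays (-0.61, adjusted p = 0.11) and in a fit of those groups alone (-0.49, adjusted p = 0.0537).

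**Figure D2:**
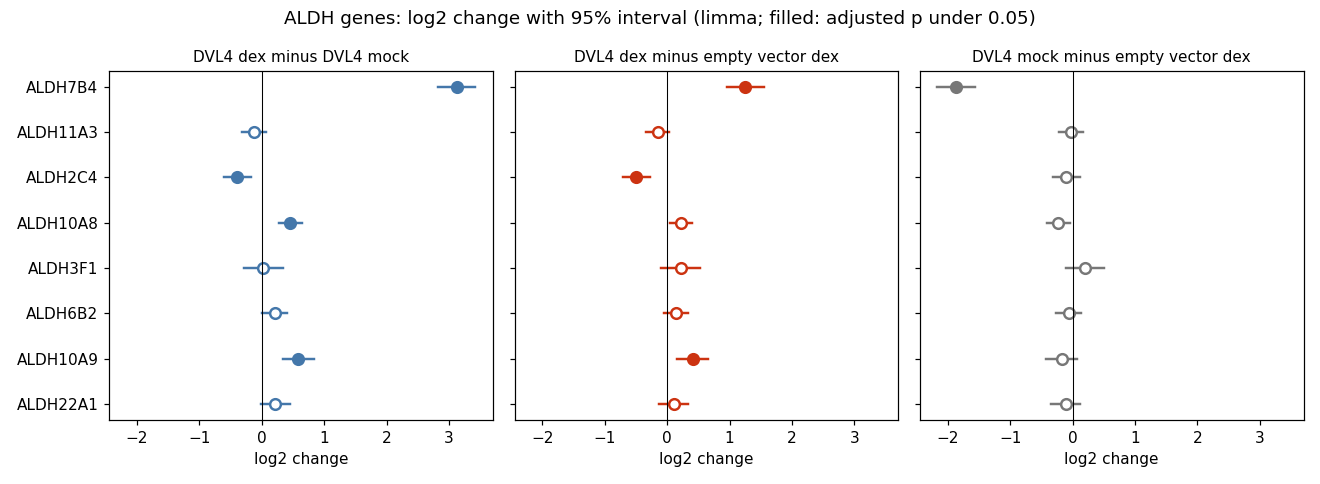
Log2 change of each ALDH gene (x axis, the first group named minus the second) in the 3 comparisons, with 95% intervals from limma and filled points where the adjusted p is under 0.05. ALDH7B4 lies at 3.12, 1.25 and -1.87, ALDH2C4 is called below 0 in the first 2 comparisons, and the other members lie within 0.6 of 0.

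The other 4 members did not pass in any of the 3 comparisons. ALDH6B2 (AT2G14170), of valine breakdown, read 825, 740 and 828 in mock, 920, 810 and 778 in empty vector dex, and 931, 965 and 861 in DVL4 dex leaves. Its DVL4 dex arrays lay above the mock arrays and overlapped the empty vector arrays. The change against mock was 0.21 ± 0.09 (0.01 to 0.40; limma adjusted p = 0.128), and against the empty vector 0.14 ± 0.09 (-0.06 to 0.34). The 3 low-5′ arrays held its 3 highest values, as they did for 6.19% of all probe sets, and with low-5′ status as a covariate the change against mock was 0.09.

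ALDH11A3 (AT2G24270), the cytosolic glyceraldehyde 3-phosphate dehydrogenase, read 1693, 1691 and 1866 in mock, 1633, 1879 and 1831 in empty vector dex, and 1534, 1525 and 1742 in DVL4 dex leaves. The groups overlapped, and here the 3 low-5′ arrays held the 3 lowest values (5.64% of all probe sets). The changes were -0.13 ± 0.09 against mock (-0.32 to 0.06) and -0.15 ± 0.09 against the empty vector (-0.35 to 0.04). With low-5′ status as a covariate the change against mock was -0.01.

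ALDH3F1 (AT4G36250), of the fatty aldehyde family, had the widest SE of the 8 genes in the fit and ran from 751 to 1062 in mock, 745 to 894 in empty vector dex and 884 to 1065 in DVL4 dex leaves, with medians of 1037, 824 and 917. All groups overlapped. Its change was 0.02 ± 0.14 against mock (-0.29 to 0.33), a value whose sign turned in 6 of 22 other settings, and 0.22 ± 0.14 against the empty vector (-0.09 to 0.53).

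ALDH22A1 (AT3G66658) was the dimmest, at 192, 225 and 197 in mock, 211, 242 and 210 in empty vector dex, and 238, 226 and 248 in DVL4 dex leaves. The DVL4 dex arrays lay just above the mock arrays and overlapped the empty vector arrays. Its changes were 0.21 ± 0.10 against mock (-0.02 to 0.45; limma adjusted p = 0.173) and 0.11 ± 0.10 against the empty vector (-0.13 to 0.34).

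Over the family, 4 of 8 genes passed against mock, 3 higher and 1 lower, where 23.7% of all probe sets passed (12.8% higher and 10.9% lower), and 39.1% of those at least as bright as the median, among which all 8 lie. Relative to the empty vector 3 passed, 2 higher and 1 lower, beside 10.2% of all probe sets (4.63% higher and 5.55% lower) and 17.3% of the brighter ones. Between the controls 1 passed, ALDH7B4, lower in mock, beside 6.21% of all (2.06% higher and 4.15% lower) and 10.0% of the brighter ones. ALDH7B4, ALDH10A9 and ALDH2C4 passed against both controls with the same sign, as did 7.96% of all probe sets (3.90% higher and 4.06% lower). The same DVL4 dex arrays stand in both of these comparisons.

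The median change of the 8 genes was 0.21 against mock, 0.18 against the empty vector and -0.10 for mock relative to the empty vector, beside medians over all probe sets of 0.01, 0.00 and -0.02. Arrays of the groups did not overlap for 6, 4 and 2 of the 8 genes, where this held for 43.0%, 24.8% and 26.2% of all probe sets. In each comparison 1 member, ALDH7B4, changed more than 1.5-fold. The family was not tested against the other probe sets.

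**Figure D3:**
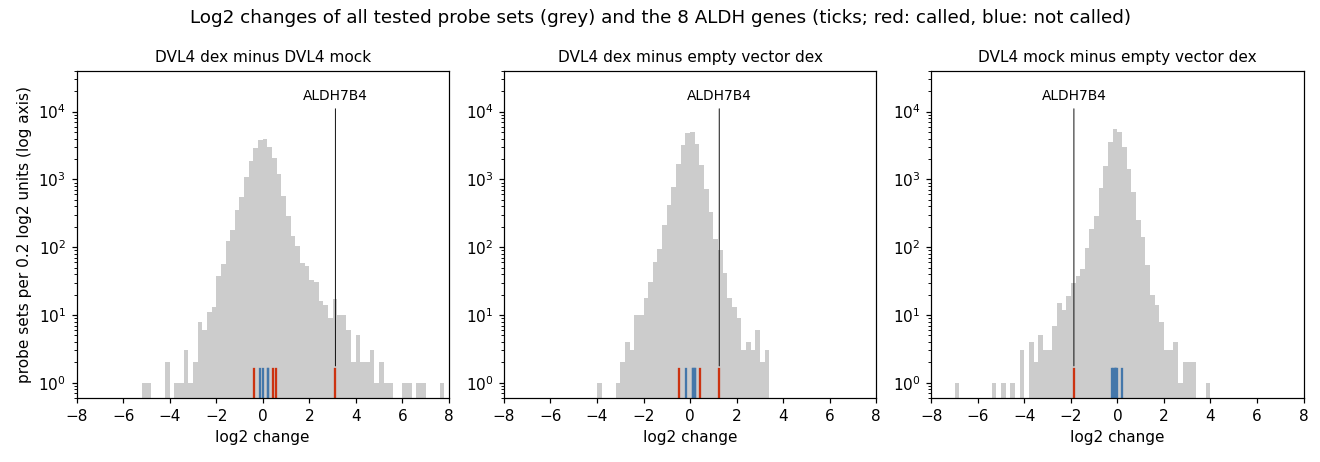
Number of probe sets by log2 change (bins of 0.2, log y axis) for all 22746 probe sets in grey, with ticks for the 8 ALDH genes, red where called and blue where not. ALDH7B4 lies in the outer tail of each distribution (3.12, 1.25 and -1.87), and the other 7 changed by at most 0.58 in either direction.

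Over the 9 arrays the member whose log2 values ran most like those of ALDH7B4 was ALDH10A8 (Pearson r = 0.95, n = 9), followed by ALDH10A9 (0.86). ALDH2C4 ran opposite to ALDH7B4 (-0.62), and ALDH3F1 was unrelated to it (0.05). These values describe arrays that fall into 3 groups, and how much of them the group differences carry was not tested.

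Outside the family, 6050 other probe sets of named genes were brighter than the median. The closest patterns among them were those of AT1G05790 and BGLU45 for ALDH7B4 (r = 0.994 and 0.993, n = 9). AT1G05790 had means of 79.2 in mock, 206 in empty vector dex and 456 in DVL4 dex leaves, and BGLU45, a beta-glucosidase of monolignol glucosides, had means of 9.88, 175 and 1195. Both stood in the same order as ALDH7B4, but with steps of another size. Brightness here was the mean log2 over the 9 arrays. The BGLU45 mock mean lay far below the array medians of 75.4 to 84.1, so it was counted as bright through its dex groups. For ALDH10A8 the closest were AT3G19970 and AT3G17430 (0.979 and 0.978), and for ALDH10A9 they were AT1G05350 and AT5G40190 (0.991 and 0.990).

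For ALDH2C4 the closest were AT4G24700 and PRL, the gene of the replication licensing factor MCM7 (0.990 and 0.984). PRL had means of 185, 225 and 90.3 in mock, empty vector dex and DVL4 dex leaves. After the group means were taken off, r with ALDH2C4 was 0.94 for AT4G24700 and 0.90 for PRL. With ALDH7B4 it was then 0.78 for AT1G05790 and 0.34 for BGLU45. For the 2 genes closest to ALDH10A8 it was 0.84 and 0.85, and for those closest to ALDH10A9 0.97 and 0.96. The likeness was picked as the highest of many, so its size is a description.

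The genes of the pathways that feed these enzymes or run beside them were read from 8 lists of 88 genes, of which 22 had a named probe set of their own. Against mock 9 of the 22 rose, 5 fell and 8 did not pass, with a median change of 0.14 (12.8% of all probe sets higher, 10.9% lower, median 0.01). In the comparison with the empty vector 6 rose, 2 fell and 14 did not pass, with a median of 0.21 (4.63% of all probe sets higher, 5.55% lower, median 0.00). Between the controls 2 were lower in mock and 20 did not pass (2.06% of all probe sets higher in mock, 4.15% lower). Of the probe sets at least as bright as the median, 39.1% passed against mock, 17.3% against the empty vector and 10.0% between the controls, in either direction. The GABA shunt and polyamine lists had no measured gene, so the supply of aminoaldehydes to the ALDH10 enzymes was not measured.

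The largest list was branched-chain amino acid and lysine breakdown, the pathways of ALDH6B2 and of the human relative of ALDH7B4. Of its 8 measured genes 4 rose against mock and 2 against the empty vector, and none fell. Of all probe sets 12.8% and 4.63% rose. Of those at least as bright as the median, as most of these genes were, 39.1% and 17.3% passed in either direction. ETFBETA is a subunit of the electron transfer flavoprotein, which takes electrons from dehydrogenases such as IVD of this list, not from ALDH enzymes. ETFBETA read 383, 316 and 363 in mock, 464, 469 and 504 in empty vector dex, and 743, 747 and 600 in DVL4 dex leaves. It stood in the order of ALDH7B4, with all 3 groups apart. It rose 1.97-fold against mock and 1.45-fold against the empty vector, and was 1.36-fold lower in mock than in the empty vector, a difference that was lost in 16 of 21 other settings, among them without any array other than DVL4 dex replicate 3 (adjusted p up to 0.148). Against the empty vector it was lost without DVL4 dex replicate 1 or 2 (adjusted p = 0.0723 and 0.0623) and without the low-5′ arrays (0.30, adjusted p = 0.367).

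ETFALPHA, the other subunit, rose 1.48-fold against mock, a call lost without the low-5′ arrays (0.51, limma adjusted p = 0.159), and was at 0.27 ± 0.12 relative to the empty vector (limma adjusted p = 0.192). IVD, the isovaleryl-CoA dehydrogenase of leucine breakdown, rose 1.33-fold against mock and 1.51-fold against the empty vector. Its call against mock was lost in 9 of 21 other settings, among them without mock replicate 2 (adjusted p = 0.123) or 3 (0.0942) and without DVL4 dex replicate 1 (0.119), 2 (0.0876) or 3 (0.0535). Relative to the empty vector IVD lost its call without DVL4 dex replicate 1 (0.0675). MCCA, a subunit of methylcrotonyl-CoA carboxylase, rose 1.87-fold against mock, although not without DVL4 dex replicate 1 or 2 (adjusted p = 0.0591 and 0.0604), with low-5′ status as a covariate (0.60, adjusted p = 0.0729) or without the low-5′ arrays (0.46, adjusted p = 0.346). DVL4 dex replicate 3 read 159 for MCCA, within the empty vector range of 107 to 163, and the low-5′ DVL4 dex arrays read 242 and 262.

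The remaining genes of this list did not pass. MCCB, the other carboxylase subunit, was at 0.09 against mock and 0.19 against the empty vector, ETFQO, which passes the electrons on, at -0.02 and 0.16, and D2HGDH at -0.23 and 0.21. AT4G33150, which encodes the enzyme that opens lysine breakdown (LKR/SDH), was dim in all groups (46.8 to 59.1) and at 0.18 ± 0.26 against mock and 0.31 ± 0.26 against the empty vector.

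Of the proline list only DELTA-OAT and AT5G38710 were measured. DELTA-OAT, the ornithine aminotransferase that makes the semialdehyde oxidised by the unmeasured ALDH12A1, read 193, 186 and 182 in mock, 249, 226 and 231 in empty vector dex, and 539, 485 and 453 in DVL4 dex leaves. Every DVL4 dex array was far above every control array, and the controls did not overlap either. It rose 2.63-fold against mock and 2.09-fold against the empty vector, and mock was at -0.33 ± 0.09 relative to the empty vector (limma adjusted p = 0.0654). AT5G38710, a proline dehydrogenase gene, was dim and did not pass (-0.08 and 0.08).

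In the sinapate list, the pathway of ALDH2C4, 1 of 4 genes rose and 1 fell against mock, and 1 rose against the empty vector, beside 12.8% and 10.9% of all probe sets against mock and 4.63% against the empty vector. UGT84A3, which makes glucose esters of hydroxycinnamic acids, rose 2.22-fold against mock and 1.78-fold against the empty vector, from 497 ± 40 and 619 ± 13.4 to 1104 ± 104 (SD, n = 3). UGT84A1, its close relative, read 20.4, 18.4 and 33.9 in mock but 0.876 to 17.0 in empty vector dex, and lay under the floor in DVL4 dex leaves (0.937 to 2.44). Its fall against mock (limma adjusted p = 0.0056) was lost with the floor at 20.1 (adjusted p = 0.448). HCT, of lignin synthesis, was at -0.05 and 0.03 and UGT72E2 at 0.10 and 0.20, and neither passed.

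Other enzymes that remove reactive carbonyls moved in both directions. Of 5 measured, 2 rose and 2 fell against mock, and 1 rose and 2 fell against the empty vector, where 23.7% and 10.2% of all probe sets passed. AER and AOR, which reduce alkenals, fell, AER by 1.27 ± 0.11 and 0.89 ± 0.11 and AOR by 0.26 ± 0.07 and 0.56 ± 0.07 against mock and against the empty vector. AOR stood highest in empty vector dex leaves, with mock lower by 0.30 ± 0.07. Its fall against mock was lost in 8 of 21 other settings, among them without each of the mock arrays (adjusted p = 0.0983, 0.0872 and 0.0573) and without DVL4 dex replicate 1 or 2 (0.113 and 0.0644). Its control difference was lost in 10 settings, among them without each of the mock arrays, empty vector dex replicate 1 or 3 and DVL4 dex replicate 2 (adjusted p up to 0.158).

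The glyoxalase genes GLY2 and GLX2-5, whose enzymes complete the removal of methylglyoxal, rose 1.37-fold and 1.33-fold against mock. Without the low-5′ arrays neither passed (0.32, limma adjusted p = 0.123 for GLY2, and 0.30, 0.230 for GLX2-5), and GLX2-5 did not pass without DVL4 dex replicate 1 (0.0503) or with low-5′ status as a covariate (0.0635). Against the empty vector GLX2-5 passed narrowly (1.28-fold, limma adjusted p = 0.042, lost in 12 of 21 other settings, among them without any array other than DVL4 dex replicate 3 and empty vector dex replicate 1) and GLY2 did not pass (0.28 ± 0.08, adjusted p = 0.0668). AT1G54870, listed as an aldehyde reductase gene, was near the floor and did not pass.

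Of the pyruvate bypass, ACS, the plastid acetyl-CoA synthetase that uses the acetate made by ALDH2B enzymes, rose 1.57-fold against mock and 1.38-fold against the empty vector. The call against mock was lost without the low-5′ arrays (limma adjusted p = 0.0787), and that against the empty vector without DVL4 dex replicate 2 (0.0697). PDC2, a pyruvate decarboxylase that makes acetaldehyde, fell by 0.38 ± 0.10 against mock, a call lost in 7 of 21 other settings (adjusted p up to 0.111), among them without each of the mock arrays and DVL4 dex replicate 2, and was at -0.36 ± 0.10 relative to the empty vector (adjusted p = 0.0512). GAPC2, the phosphorylating counterpart of ALDH11A3 in the cytosol, fell 1.23-fold against mock, lost in 7 settings (adjusted p up to 0.273), among them without mock replicate 1 or 3 and DVL4 dex replicate 1 or 2, and was at -0.11 ± 0.08 relative to the empty vector.

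**Figure D4:**
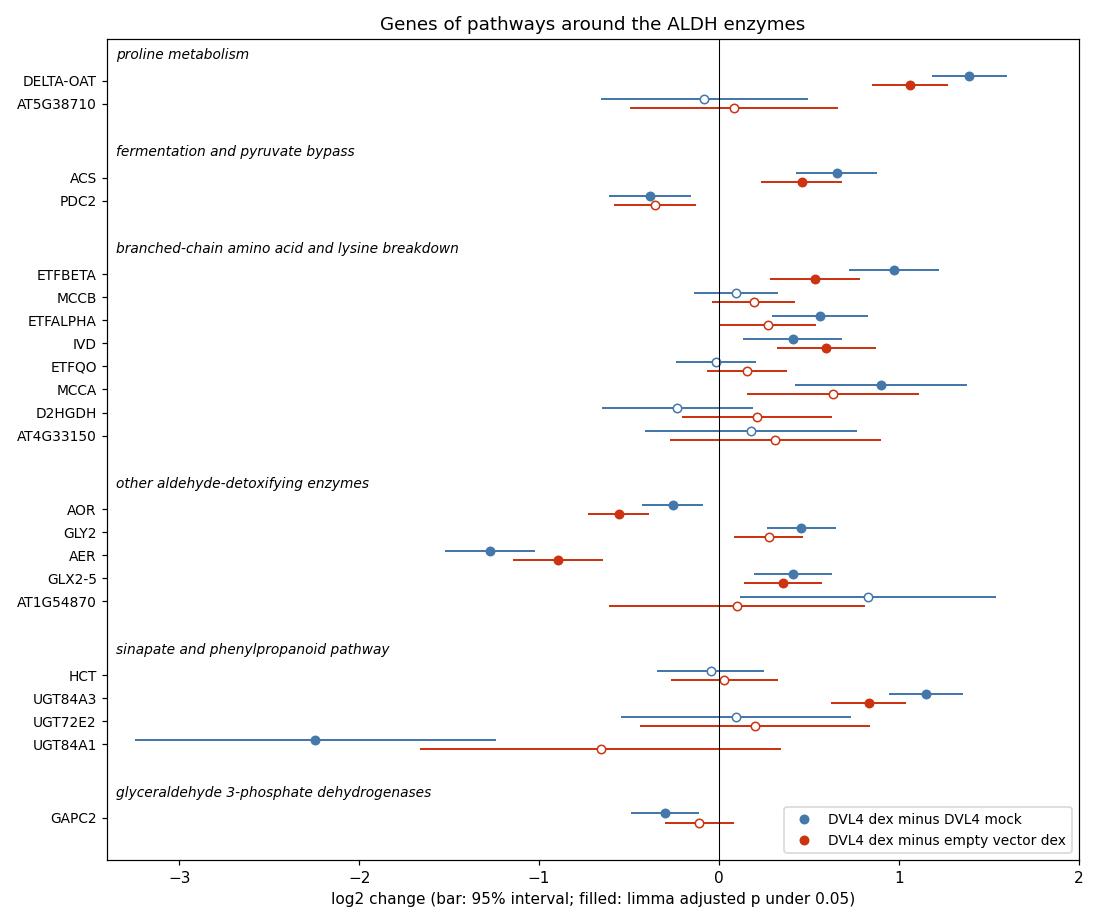
Log2 change with 95% interval of the 22 measured pathway genes, by list, against DVL4 mock in blue and against empty vector dex in red, filled where the limma adjusted p is under 0.05. DELTA-OAT, ETFBETA and UGT84A3 lie right of 0 in both comparisons, AER and AOR left of 0 in both.

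Without the low-5′ arrays, which leaves 1 DVL4 dex array, most of the 14 pathway calls against mock were lost, as were most calls over all probe sets. Those of DELTA-OAT, ETFBETA, AER and UGT84A3 were kept. All 14 changes against mock kept their sign, at 1.28 for DELTA-OAT, 0.46 for MCCA and -0.30 for PDC2. All 8 pathway genes that passed against the empty vector lost that call without the low-5′ arrays (limma adjusted p from 0.0703 for DELTA-OAT to 0.371 for GLX2-5), where 4 of all 22746 probe sets passed. Their changes against the empty vector kept their sign there, at 0.99 for DELTA-OAT, 0.70 for UGT84A3 and -0.82 for AER.

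The calls of the 4 ALDH genes that changed were set beside 22 other ways of processing the same arrays. Of these, 1 (the mean over a gene's probe sets) could not differ from the values reported, since each gene has 1 probe set. ALDH7B4 ran from 2.98 to 3.22 against mock and passed in all 22, and ran from 1.09 to 1.32 against the empty vector and passed in 21. ALDH10A8 ran from 0.39 to 0.53 against mock, ALDH10A9 from 0.47 to 0.64 and ALDH2C4 from -0.56 to -0.31. Each kept its sign in all settings.

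**Figure D5:**
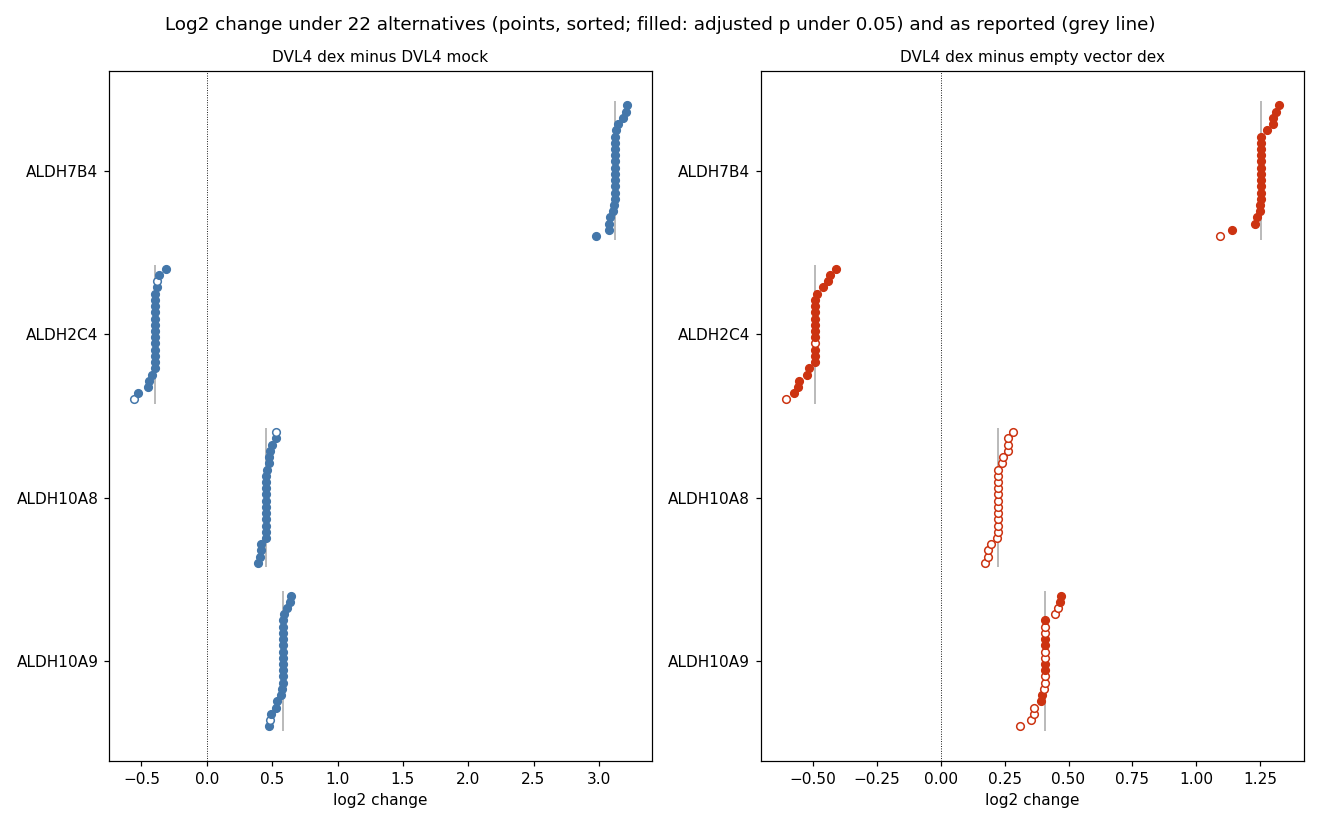
Log2 change of the 4 ALDH genes called in at least 1 comparison, against DVL4 mock (left) and against empty vector dex (right), under 22 other settings (points, sorted by value within a gene, filled where the limma adjusted p is under 0.05) and as reported (grey line). ALDH7B4 stays at 2.98 to 3.22 and at 1.09 to 1.32, and the open points of ALDH10A9 against empty vector dex are the 13 settings in which its call was lost.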

How the data were processed

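RNA from pooled rosette leaves was hybridised to 9 Affymetrix ATH1 arrays. The authors deposited 1 intensity per probe set and array on a linear scale, computed with dChip per the labels' series text. No source used here gives the dChip model or settings. From these intensities, values under 4.92 (the 5th percentile) were set to that floor, log2 was taken, 64 control probe sets were left out, and 22746 were fitted in R 4.3.3 with limma 3.58.1 (lmFit, eBayes with trend, all 3 groups, Benjamini-Hochberg adjustment over all probe sets, threshold 0.05). The fit was tested on simulated data. The number of arrays, 3 per group, limits the precision. GEO's platform annotation gave 1 gene to 13513 probe sets, several to 503 and none to 8730. Loci come from RefSeq through the gene identifiers of that annotation. List entries without a locus were matched by RefSeq symbol or synonym. For CCR1 this gave the gene EFS, which had no named probe set. The members and gene lists were chosen with earlier results of these data known. All members were named, as were pathway genes called in at least 1 comparison, up to 6 per list by smallest p, and the 2 genes most alike to each called member. Uncalled pathway genes, markers and the values printed per array for pathway genes were chosen after their values were seen. The 22 alternatives changed scaling, floor, filter, variance model, array weights, samples or 5′ signal. Figures were drawn with matplotlib 3.10.9.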

Additional observations from a re-analysis of the deposited data

How the results depend on the processing

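The ALDH genes were recomputed in all comparisons under 22 alternatives, 9 of which left out 1 array. Pathway genes were recomputed only in comparisons where they passed, under 21 alternatives (UGT84A1 under 20), and markers not at all. Averaging a member's probe sets changed nothing, since each has 1. Of 8 ALDH genes, 4 passed against mock, and 1 did without the low-5′ arrays, which leaves 1 DVL4 dex array. Array weights gave 6, with ALDH6B2 (0.20, limma adjusted p = 0.033) and ALDH22A1 (0.24, 0.0326) added. Against the empty vector 3 passed, 1 with only the groups compared and 0 without the low-5′ arrays, where fewer arrays and 4 probe sets in all remained. Leaving out 1 array gave 3 to 4 against mock (3 without mock replicate 1), 2 to 3 against the empty vector and 1 between the controls. Replicate numbers did not pair the arrays by the rule used: same-numbered arrays correlated at -0.148 to 0.14, over 0.1 in 2 of 9 pairs, and 3 of 9 arrays correlated best with their own number. With the replicate block 4, 2 and 1 members and 5116, 2057 and 1256 probe sets passed.

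Among the values recomputed, the sign turned for 3 changes, none of which passed under any setting. ALDH3F1 against mock went from 0.02 to -0.022 with quantile normalization, -0.055 with array weights, -0.037 with low-5′ status as a covariate and -0.086 without the low-5′ arrays, and ran from -0.14 (without mock replicate 2) to 0.11 with 1 array left out, also turning without DVL4 dex replicate 2 (-0.059). For mock relative to the empty vector, ALDH11A3 went from -0.02 to 0.025 with median centring and ran from -0.086 to 0.015 with 1 array left out, and ALDH6B2 went from -0.07 to 0.0055 without the low-5′ arrays and ran from -0.12 to 0.0055 with 1 array left out. The causes were not tested.

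Over all probe sets, 5401 passed against mock, 8999 with array weights, 3477 without DVL4 dex replicate 1 and 1360 without the low-5′ arrays. Against the empty vector 2317 passed (1054 higher, 1263 lower), 1164 with only the groups compared, 993 and 1323 without DVL4 dex replicate 1 and 2, and 4 without the low-5′ arrays. Median centring turned the split to 1476 higher and 1080 lower. Between the controls 1412 passed (469 higher in mock, 943 lower), 813 without the variance trend, 2218 with array weights, 892 with only the groups compared, 615 without empty vector dex replicate 3, 747, 580 and 480 without mock replicates 1, 2 and 3, and 614 without the low-5′ arrays, with splits of 674 to 866 under quantile normalization and 714 to 904 under median centring.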
